A study of Mus musculus with 24 samples.

Results

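The cytosines described here were L-strand positions of mouse mitochondrial DNA (mtDNA) at which guanines were neither absent nor frequent. For each L-strand cytosine listed in the deposited tables, the H-strand cytosines, each of which is a guanine of the L strand, were counted in every 50 nt window that covered the position on the circle of 16299 nt. A position was taken as a member when the window with the fewest held 2 or 3, which is called its fewest count. Of 3890 L-strand cytosines listed, 1259 (32.4%) met this rule, 625 with a fewest count of 2 and 634 with a fewest count of 3, among 5829 cytosines on both strands. The other L-strand cytosines were 805 with a fewest count of 0 or 1 (the sparse class) and 1826 with 4 or more (the guanine-rich class). The rule used sequence only and no measured rate. In 4 blocks of the genome (chrM:2003-2173, chrM:2680-2745, chrM:3772-3840 and chrM:6873-6938) cytosines were not listed, so positions there were not analysed here and windows that reached into them were short of entries. With guanines counted on the mm10 reference instead, 1251 of the 1259 positions met the rule again.

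The 24 libraries measured how much cytosine remained unconverted after bisulfite treatment of linear mtDNA for 5, 15, 40, 60 or 90 min, each site by its unconversion rate, the percent of reads still showing C. Native mtDNA came from nuclease-treated mitochondria of E14 embryonic stem cells (ESCs), 1 wild-type line grown on feeder cells with inhibitors of GSK-3β and MEK (preparations E1, E2 and E3), and from brain (B1 and B2) and liver (L1 and L2) of wild-type C57BL/6J mice, whose ages were not given in the sources used here. Synthetic mtDNA (S1), made by PCR and so free of 5-methylcytosine, was a single preparation. E1, E2, B1, L1 and S1 were treated for 5, 15, 40 and 60 min, E3 for 60 and 90 min, and B2 and L2 for 60 min. Native mtDNA was cut with BglII and the synthetic product was made to match it in extent. Each was mixed with unmethylated lambda phage DNA and treated with 9.2 M bisulfite before post-bisulfite adaptor tagging, in which adaptors are added after the conversion step. Libraries are named by preparation and minutes, so that B2_60 is brain preparation 2 at 60 min. A site was used in a library when it was covered by at least 10 reads. The paper set aside reads unconverted at 90% or more, which it also found on the L strand of synthetic mtDNA. After that step it reported nearly complete conversion of the L strand at 60 min. That step was not applied here, so the rates below are not on the same scale as the paper's.

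The mitochondrial genome encodes subunits of the respiratory chain together with the ribosomal and transfer RNAs needed to translate them. Its strands differ in base composition, the H strand being rich in guanine and the L strand poor in guanine and rich in cytosine. Bisulfite deaminates cytosine to uracil only in single-stranded DNA, and 5-methylcytosine reacts far more slowly, so a remaining C can mark a methylated base or a base that the reagent did not reach. The paper names another possibility for L-strand reads. Copies made from H-strand fragments that hold no cytosine could align to the L strand and be read as unconverted. Which of these applied at the sites described here was not tested.

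The following 50 nt stretches of the L strand show what such sequence looks like at both ends of the range of rates. They are RefSeq mm10 sequence, 5′ to 3′, and the capitals mark the guanines. The first 3 stayed almost wholly unconverted at 60 min, the fourth was unconverted in part, and the last 4 were almost wholly converted.
ND2, chrM:4015-4064: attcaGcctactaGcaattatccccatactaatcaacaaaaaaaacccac
ND4, chrM:10913-10962: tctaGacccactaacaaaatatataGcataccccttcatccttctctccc
ND4, chrM:11417-11466: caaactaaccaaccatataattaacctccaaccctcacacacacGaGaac
ND1, chrM:3224-3273: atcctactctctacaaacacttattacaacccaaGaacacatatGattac
COX1, chrM:5944-5993: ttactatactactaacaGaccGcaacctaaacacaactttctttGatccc
mt-Rnr2, chrM:2607-2656: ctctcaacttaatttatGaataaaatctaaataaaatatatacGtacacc
COX3, chrM:9086-9135: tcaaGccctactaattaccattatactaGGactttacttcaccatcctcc
TrnY and COX1, chrM:5317-5366: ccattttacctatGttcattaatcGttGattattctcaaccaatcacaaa
The ND2, ND4, ND1 and mt-Rnr2 windows held 2 guanines each, and the COX1, COX3 and TrnY windows held 3, so windows with 2 guanines stood at both ends.

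Depth was uneven, and fewer of these sites were covered at 15, 40 and 60 min than at 5 min. Total cytosine calls ran from 257028 in E3_90 to 2260572 in E1_40, and B2_60 had 302234. At 5 min, 93.1 to 96.6% of the 1259 cytosines reached 10 reads. At 60 min, 47.6 to 70.4% did so in 7 libraries and 23.6% in B2_60. Over the 8 libraries at 60 min 286 cytosines were covered in all, 369 in none, and 30 were covered in no library of any duration. The median coverage of the covered sites at 60 min was 19 to 63 reads, at which a count of 0 allowed a rate of up to 15.8 to 4.76%. This limit and the intervals given here cover counting error only, because the reads carried no molecular identifiers. No pair of libraries had identical coverage.

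At 60 min the unconversion rate was lower at each higher fewest count in 50 nt windows, and the largest step lay between 2 and 3. The mean rate over covered sites was 86.0% ± 2.75 (SD, n = 8 libraries) at a fewest count of 0 and 73.9% ± 1.37 at 1. It was 47.9% ± 4.81 at 2 and 9.91% ± 1.29 at 3. It was 2.60% ± 1.15 at 4 and 1.48% ± 0.30 at 5. The libraries did not overlap between counts of 2 (42.0 to 58.6%) and 3 (7.31 to 11.2%). At 5 min the largest step lay instead between 4 (64.5%) and 5 (43.2%), with 82.7% at 2 and 70.9% at 3.

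**Figure D1:**
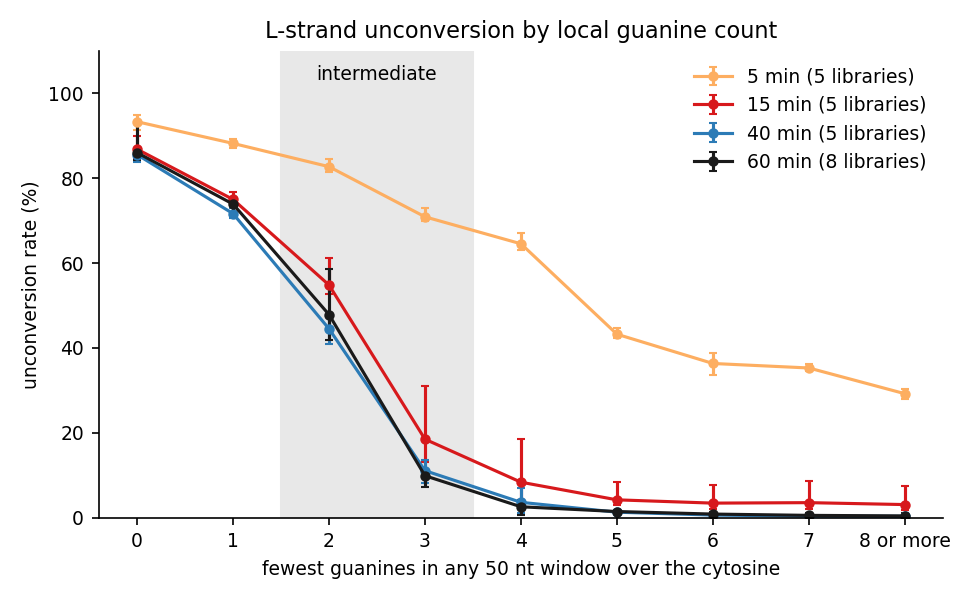
Mean unconversion rate (percent, vertical axis) of L-strand cytosines against the fewest guanines in any 50 nt window covering the site (horizontal axis), by bisulfite duration; points are means over libraries, bars run from the lowest to the highest library, and the grey band marks counts of 2 and 3. At 60 min the mean drops from 47.9% at 2 guanines to 9.91% at 3, and at 5 min from 82.7 to 70.9%.

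Taken over both counts, the 1259 cytosines lay between the other L-strand classes in every preparation. Their mean rates at 60 min were 27.1% in E1, 30.1% in E2, 30.3% in E3, 30.1% in B1, 35.6% in B2, 31.2% in L1, 29.97% in L2 and 29.7% in S1, a mean of 30.5% ± 2.38 (SD, n = 8). B2, the library with the fewest covered sites, was the highest and E1 the lowest. Sites with a fewest count of 0 or 1 had 78.9% ± 1.65, sites with 4 or more had 1.45% ± 0.358, and the H strand had 0.404 to 0.786%. The cytosines of intermediate guanine density were 48.3 percentage points ± 1.37 lower than the first of these (8 of 8 preparations, two-sided exact permutation test by sign flips, p = 0.0078, the smallest that 8 pairs allow). They were 29.1 points ± 2.43 higher than the second (8 of 8, p = 0.0078, same exact test). Within them, sites with a fewest count of 3 were 38.0 points ± 5.83 lower than sites with 2 (8 of 8, range 32.2 to 51.3 points in size, p = 0.0078, same exact test). The sizes depended on the window: with 40 and 60 nt windows the last difference was -10.7 and -23.8 points, and with 40 nt windows the difference from the guanine-rich class was 7.23 points (p = 0.0078 each, same exact test). Pooled over reads, the latter was 18.6 points. A pooled rate over reads instead of sites was lower, 13.8 to 30.6% at 60 min, and in S1_60 was 15.0% (95% Wilson interval 14.8 to 15.2).

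The mean described few of these cytosines, because their rates gathered at both ends of the scale. In the 60 min libraries 51.4 to 56.4% of the covered sites were under 10% and 10.8 to 29.3% were at 90% or more. Between them, 8.75 to 19.5% lay from 10 to under 50% and 6.06 to 18.7% from 50 to under 90%. The share at 90% or more was highest in B2_60 and without it was 10.8 to 17.4%. The median rate was 4.3 to 8.3%, far below the mean of every library. The SD over sites was 35.1 to 43.0 points, against 31.4 to 35.6 in sites with a fewest count of 0 or 1, 2.46 to 8.11 in sites with 4 or more and 0.935 to 1.93 on the H strand. Within a preparation it was 3.37 points ± 3.42 above the sparse class, 32.8 ± 3.70 above the guanine-rich class and 36.2 ± 2.42 above the H strand (8 of 8 each, two-sided exact permutation test, p = 0.0078). The difference from the sparse class was 2.20 points without B2 and did not hold under 2 other settings: it was 0.632 points (p = 1, same exact test) at a coverage minimum of 30 and turned to -15.5 points with 40 nt windows, though it was 13.0 with 60 nt windows and 6.77 over common sites. With 40 nt windows the other SD differences were 18.7 and 21.4 points.

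**Figure D2:**
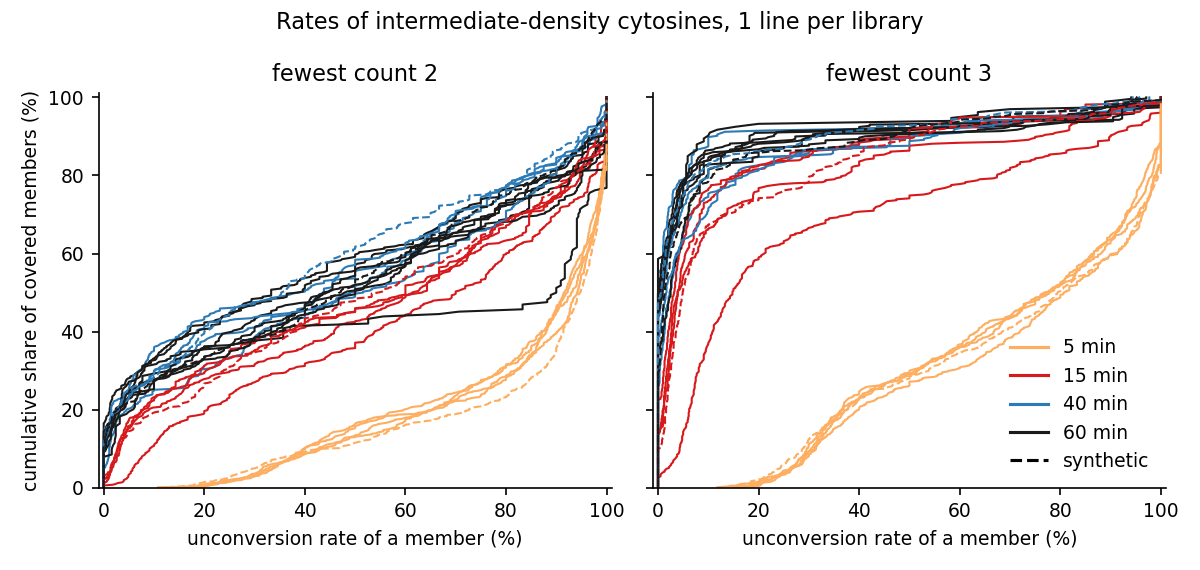
Cumulative share of covered cytosines (percent, vertical axis) against unconversion rate (percent, horizontal axis), 1 line per library of 5, 15, 40 or 60 min (synthetic mtDNA dashed), for fewest counts of 2 (left) and 3 (right). Over both panels 51.4 to 56.4% of sites lie under 10% at 60 min, while at 5 min no site does.

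The same sites were high or low in each preparation. Of the 286 cytosines covered in all 8 preparations, 170 had a mean under 10%, 62 lay between and 54 had 90% or more. The fewest count did not settle which: of the 155 sites with 2, 50 were under 10% and 50 at 90% or more, whereas of the 131 sites with 3, 120 were under 10% and 4 at 90% or more. Those 4 were L9606, L9607, L9611 and L9613 in ND3, a subunit of complex I of the respiratory chain, with 91.9 to 96.1%. The SD over preparations of a single site had a median of 1.95 points. It was 1.35 for sites under 10%, 2.32 for sites at 90% or more and 10.8 for those between. Pearson's r between preparations over the 286 sites was 0.946 to 0.997 in 28 pairs (median 0.982), a description only, since neighbouring sites share reads and all pairs share the sequence.

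The extremes were named by a rule on the mean of the 8 preparations at 60 min. The highest were L11425 in ND4, at 99.7% ± 0.74, and L14017 and L14018 in ND6, at 99.7% ± 0.56 each. L11425 was at 100% in every preparation but E3, which had 97.9%. ND4 and ND6 are both subunits of complex I. The lowest were L5865, L5869 and L5871 in COX1, the catalytic subunit of cytochrome c oxidase, with 0 unconverted of 771, 804 and 805 reads over the 8 preparations, which allows a rate of up to 0.389, 0.373 and 0.373%. Also at 0 in all 8 were L9166 and L9167 in COX3, picked after their values were seen, with a limit of 0.290% each. The most variable were L3263 (29.6% ± 22.0), L3261 (30.2% ± 21.8) and L3232 (41.5% ± 21.02) in ND1. At each of them B2 was the highest, L3263 with 83.3% at a coverage of 12 reads, against 15.3 to 26.4% in the other 7 preparations.

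The high and low sites were grouped along the genome. The 1259 cytosines fell into 94 stretches, runs of members with no other L-strand cytosine between, holding 1 to 58 members (median 12.5). Of the variance of the site means of the 286 sites, 96.9% lay between the 31 stretches they came from. Sites of 1 stretch share reads and overlapping windows, so they are not replicates of each other. In 13 stretches at least 10 members were covered in all 8 preparations, and the following values are means over those members.

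The highest was chrM:4018-4077 in ND2, with 19 members, of which the 10 covered in all 8 preparations lay from L4036 to L4062. Its native preparations had 99.5 to 100% and S1 had 96.0%, a mean of 99.3% ± 1.33 (SD, n = 8). Next were a pair of stretches in ND4, both nearly unconverted at the members covered in all 8 preparations. The one at chrM:11363-11460 had 97.8% ± 1.86, from 94.2% in E1 to 100% in E2. This mean holds 14 of its 30 members, from L11425 to L11456, and the rest of the stretch has no value in it. The one at chrM:10899-10962 (21 of 24 members) had 97.1% ± 2.01, from 94.2% in S1 to 99.7% in L1. Nearly all their members had a fewest count of 2.

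At the low end stood chrM:5942-5993 in COX1 (17 members, each with a fewest count of 3), with 0.41% ± 0.33 and no library above 0.95%. The stretch at chrM:2589-2812 runs from the end of mt-Rnr2 across an unlisted block into the start of ND1. Of its 40 members, 19 were covered in all 8 preparations, all in mt-Rnr2 from L2589 to L2664. These had 0.72% ± 0.81, with 2.67% in B2 and 0.16 to 0.76% in the others. Of the 19, 13 had a fewest count of 2 and 6 had 3. TrnY and COX1 at chrM:5317-5363 had 1.18% ± 1.17, and COX3 at chrM:9077-9172 had 1.43% ± 0.72.

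Between these lay the stretches that varied most among preparations. ND1 at chrM:3190-3280 had 53.6% in E1, 44.4% in E2, 47.9% in E3, 43.5% in B1, 92.3% in B2, 36.2% in L1, 48.6% in L2 and 43.7% in S1, a mean of 51.3% ± 17.3 (SD, n = 8). B2 stood apart and the rest lay within 36.2 to 53.6%. COX3 at chrM:9241-9305 had 15.1% ± 7.83, from 4.36% in L2 to 25.7% in B1.

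**Figure D3:**
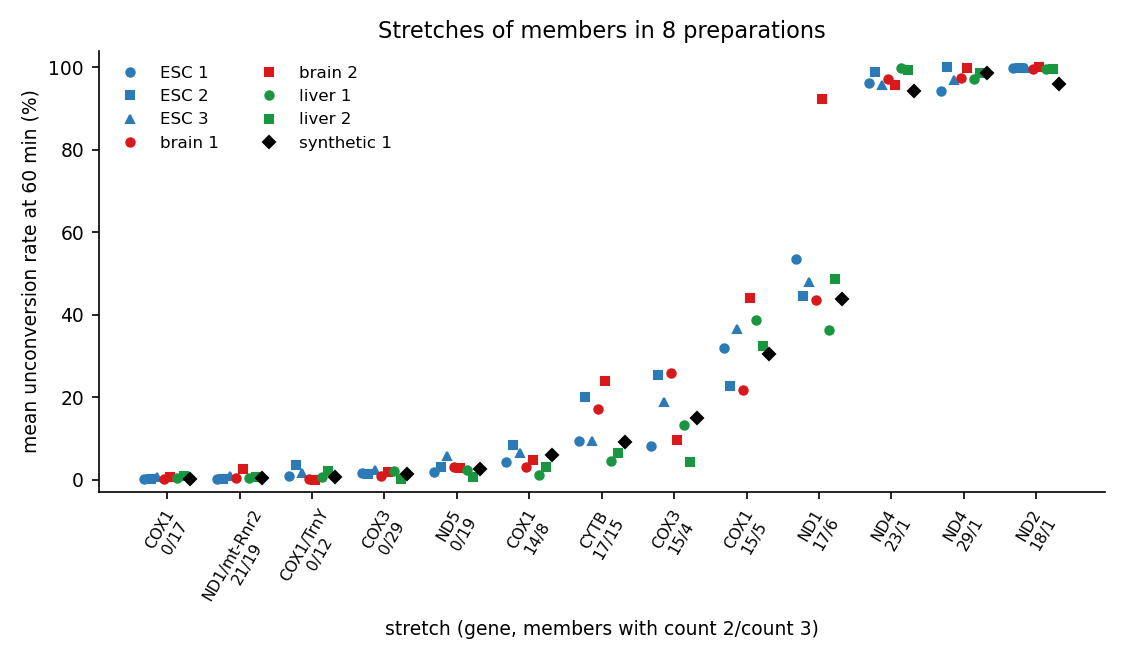
Mean unconversion rate at 60 min (percent) of the 13 stretches with 10 or more members covered in all 8 preparations, 1 point per preparation, named by gene with their members of fewest count 2 and 3. The ND2 and ND4 stretches sit at 94.2 to 100%, the lowest COX1 stretch at or under 0.95%, and B2 lies apart at 92.3% in the ND1 stretch.

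Among genes with at least 30 members, the order of means at 60 min over the sites covered in all 8 preparations was ND6 (99.5% ± 0.608, 3 sites of 33 members), ND2 (92.8% ± 3.73, 15 of 105), ND4 (92.2% ± 1.41, 37 of 147), COX2 (81.7% ± 9.78, 8 of 69), ND3 (67.5% ± 5.37, 6 of 39), ND1 (44.5% ± 14.9, 13 of 107) and ND5 (30.1% ± 2.09, 30 of 203). The lower part was CYTB (12.5% ± 6.96, 16 of 91), COX1 (10.2% ± 1.96, 57 of 71), COX3 (5.22% ± 2.31, 36 of 96), the control region (1.42% ± 1.02, 8 of 59), mt-Rnr1 (1.20% ± 1.08, 8 of 32) and mt-Rnr2 (0.959% ± 0.635, 40 of 43). CYTB encodes the cytochrome b subunit of complex III, and the control region holds the start of H-strand replication. The ranges of the 8 preparations overlapped between all neighbours in this order other than ND6 and ND2, and ND5 and CYTB. The ND genes encode subunits of complex I. Over the sites each library covered, which include more members but not the same ones, some means were far from these: 36.4% ± 15.9 in ND3, 16.5% ± 6.25 in mt-Rnr1 and 15.9% ± 16.0 in the control region, where S1 had 47.5%. ND4L, with 25 members, had 6.32% ± 2.49 over 2 common sites and 49.8% ± 19.5 over the sites each library covered. The order of the genes thus depends on which sites are taken. The ATP synthase genes ATP8 (30 members) and ATP6 (86 members) had no site covered in all 8, and over the sites each library did cover they had 98.6% ± 3.07 and 33.7% ± 26.1. These gene means rest on few stretches each, and the number of covered sites differs among genes. In all, 1091 of the 1259 cytosines lay in protein-coding genes, 75 in rRNA, 32 in tRNA and 59 in the control region, 11 of them in a second gene also, and L14141 and L14142 lay outside these annotations.

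With time, the rate fell steeply in the first interval, less in the next and not measurably after 40 min. At 5 min the mean rate was 75.9% in E1, 78.2% in E2, 76.0% in B1, 76.3% in L1 and 78.0% in S1. At 15 min these were 47.6, 35.0, 38.5, 35.4 and 36.0%, with E1 above the other 4. E1_15 was less converted at other sites too. Its H-strand mean was 10.55%, against 3.33 to 3.67% in the other 4, and its guanine-rich class had 11.5%, against 2.91 to 4.14%. At 40 min they were 31.5, 27.9, 28.0, 31.6 and 26.2%, and at 60 min 27.1, 30.1, 30.1, 31.2 and 29.7%. No preparation overlapped between 5 and 15 min or between 15 and 40 min, and the ranges overlapped between 40 and 60 min. The change from 5 to 15 min was -38.4 points ± 6.03 (SD, n = 5; 5 of 5 lower, two-sided exact permutation test of 5 against 5 libraries, p = 0.0079, the smallest possible). From 15 to 40 min it was -9.48 ± 4.53 (5 of 5 lower, p = 0.0079, same exact test). From 40 to 60 min it was +0.62 ± 3.12 (p = 0.627, same exact test). Since each preparation gave a library at each time, the paired exact sign-flip test was also run, and with 5 pairs it gave p = 0.0625 for each of the first 2 intervals, the smallest it allows, and p = 0.75 for the last.

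**Figure D4:**
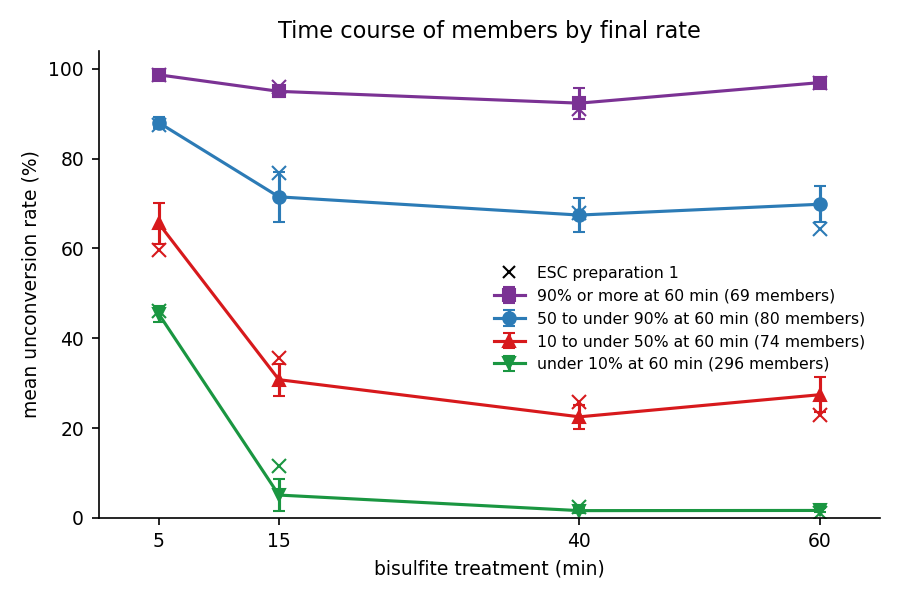
Mean unconversion rate (percent, vertical axis) against minutes in bisulfite (horizontal axis) for the 519 cytosines covered in all 20 time course libraries, grouped by their mean rate at 60 min; points are means of 5 preparations, bars 1 SD and crosses E1. The group under 10% falls from 45.4 to 1.64% and the group at 90% or more stays between 98.6 and 92.3%.

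Since fewer sites were covered at later times, the 519 cytosines covered in all 20 libraries of these 5 preparations were followed separately. Their means were 61.9% ± 1.503 at 5 min, 30.9% ± 3.02 at 15 min, 26.8% ± 0.929 at 40 min and 28.5% ± 1.32 at 60 min (SD, n = 5). The fixed set thus started lower and fell by less, with changes of -30.99 points ± 3.61 and then -4.13 ± 2.57. From 40 to 60 min its change was +1.70 ± 1.68, with a range of -0.892 to 3.40 (two-sided exact permutation test, p = 0.0556). E1 at 15 min had 36.2%, against 28.8 to 30.6% in the other 4.

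Grouped by their mean at 60 min, which describes the courses and tests nothing, the 519 sites went different ways. The 296 that ended under 10% began at 45.4% and were at 5.07% by 15 min, 1.61% at 40 min and 1.64% at 60 min. E1_15, which was less converted at other sites also, was the exception, with 11.4% against 2.93 to 4.33%. The 74 that ended from 10 to under 50% passed from 65.5% through 30.8 and 22.5 to 27.4%, and the 80 that ended from 50 to under 90% passed from 88.0% through 71.5 and 67.4 to 69.8%. The 69 that ended at 90% or more had 98.6, 94.96, 92.3 and 96.9%. By the fewest count, the 283 sites with 2 went from 72.0% through 47.6 and 42.3 to 44.7%, and the 236 with 3 from 49.8% through 10.9 and 8.19 to 9.001%. Most of the difference in the sites with 3 lay before 15 min, and the sites with 2 stayed higher at every time.

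The reads behind these rates changed in an unequal way. In the 5 preparations, unconverted reads per site at 60 min were 10.3% ± 5.52 (SD, range 6.20 to 19.9%) of those at 5 min, while converted reads were 98.6% of theirs, with a range of 53.1 to 219%. Unconverted reads in sites with a fewest count of 0 or 1 stood at 53.2% and in sites with 4 or more at 1.54%. Libraries were of unequal depth, so these shares mix depth with conversion, and whether converted and unconverted strands were recovered alike was not tested.

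Site by site, limma on the logit of the unconverted share called 475 of the 519 lower at 15 than at 5 min and 0 higher (adjusted p under 0.05, Benjamini-Hochberg over 3678 sites of both strands). The share called lower among all sites tested was 89.7%, and 79.6% on the L strand, and the share called higher was 1.09 and 2.17%. The calls covered 248 of 283 sites with a fewest count of 2 and 227 of 236 with 3. From 15 to 40 min limma called 186 lower and 3 higher, against 63.0% lower and 0.326% higher over both strands and 33.4 and 0.651% on the L strand. The 186 were 80 sites with a fewest count of 2 and 106 with 3, and 186 of 519 is close to the share of the whole L strand. The 3 that were higher, picked after their values were seen, were L523, L524 and L542 in mt-Rnr1, of which L542 went from 51.3% ± 10.4 to 71.5% ± 14.5 (limma adjusted p = 0.0208) and was at 65.2% ± 9.80 at 60 min. With E1, L1 or S1 left out, limma called 0 higher, and with E2 left out it called 5. From 40 to 60 min limma called 0 of 519 in either direction, with a background of 0% over both strands. At an unadjusted p under 0.05 there were 90 of these sites and 360 of all.

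The fall from 5 to 60 min, the mean of a site at 5 min less that at 60, ranged from -29.5 to 87.0 points over the 519 sites, with a median of 32.8. The largest were at L16139 in the control region, from 87.0% to 0%, L12620 in ND5, from 85.8 to 4.04%, and L12578 in ND5, from 85.6 to 3.98%. L16139 passed through 14.6% at 15 min, where E1 had 50% and the other 4 had 2.9 to 7.7%. L12620 showed the same, with 42.9% in E1_15 and 4.9 to 8.2% in the other 4. Among the stretches, COX1 at chrM:5942-5993 went from 27.01% through 2.22 and 0.59 to 0.18%, COX3 at chrM:9077-9172 from 43.1% through 3.0 and 0.50 to 1.43% and ND5 at chrM:12616-12669 from 75.9% through 9.50 and 1.88 to 2.55%. ND1 at chrM:3190-3280 went from 84.8% through 56.8 and 48.6 to 44.3%. ND2 at chrM:4018-4077 stayed at 99.9, 99.7, 99.4 and 99.0%.

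A pair of stretches, picked after their values were seen, showed a change within 1 stretch and a change against the general fall. Their sequences are given with guanines in capitals. The COX1 sequence is all of its stretch, with 3 guanines and 20 members, and the ND5 sequence is likewise all of its stretch, with 3 guanines and 13 members.
COX1, chrM:5809-5874: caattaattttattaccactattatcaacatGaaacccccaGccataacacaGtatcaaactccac
ND5, chrM:12806-12853: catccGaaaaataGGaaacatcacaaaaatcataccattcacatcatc
In the COX1 stretch the rates were lower toward its 3′ end. The 10 members with a fewest count of 2 had 48.4% at 60 min and the 5 with 3 had 0.025%, and the former were higher in 8 of 8 preparations. L5824 had 67.8%, L5848 had 21.7%, and L5865, L5869 and L5871 had 0. In the 5 stretches with at least 3 covered members of each count, those with 2 were the higher in each, by 0.196 to 48.4 points (median 4.04).

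**Figure D5:**
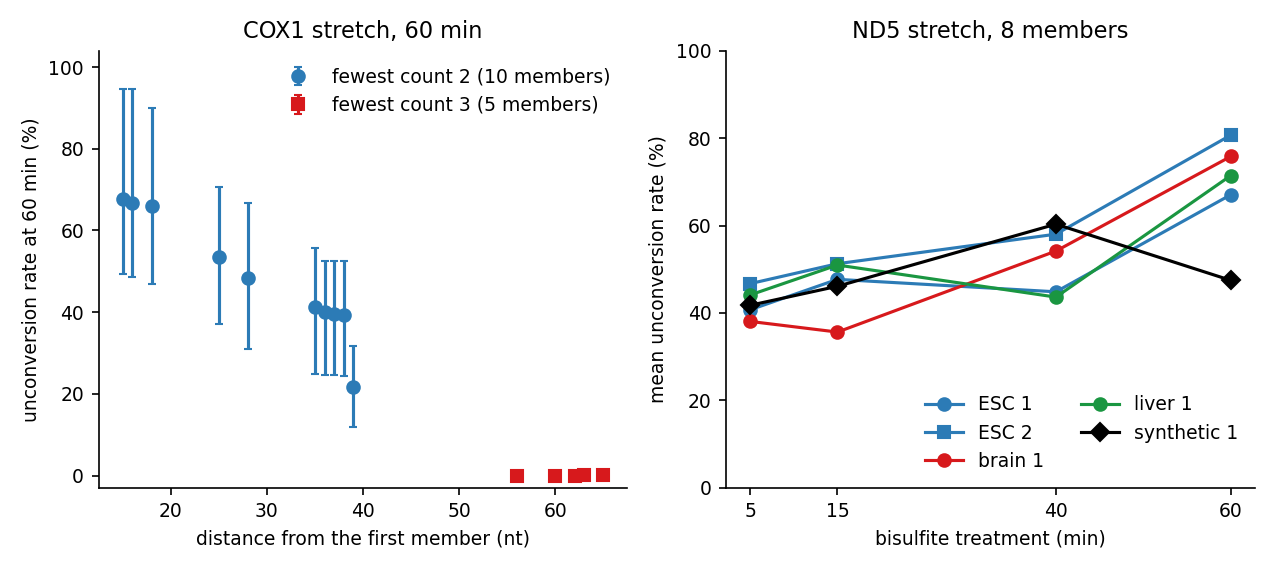
Left, unconversion rate at 60 min (percent) by distance along the COX1 stretch from its first member, with points for the mean of each site and bars from the lowest to the highest of 8 preparations; right, mean rate of 8 ND5 cytosines by minutes in bisulfite for 5 preparations. The COX1 rates run from 67.8% to 0, and the mean of the ND5 preparations is 42.3% at 5 min and 68.5% at 60 min.

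The ND5 stretch at chrM:12806-12853 had higher rates at 60 than at 5 min, a difference that was not tested. All 8 of its members covered in the 20 libraries had a higher mean at 60 than at 5 min, by 16.2 to 29.5 points, and their mean went from 42.3% ± 3.29 through 46.3% ± 6.37 and 52.2% ± 7.60 to 68.5% ± 12.8 (SD, n = 5). From 5 to 60 min E1 went from 40.7 to 67.1%, E2 from 46.7 to 80.7%, B1 from 38.1 to 75.8%, L1 from 44.1 to 71.4% and S1 from 41.8 to 47.5%. Every preparation was higher at 60 min, S1 by the least, and S1 had stood at 60.3% at 40 min. Preparations treated at 60 min but not at 5 had 59.4% in E3, 62.8% in B2 over 5 covered members and 65.6% in L2. Reads of both kinds became fewer, unconverted ones from 86.3 to 24.98 per site and converted ones from 120 to 13.1. At L12840, with the smallest fall of all 519, the reads over 5 preparations went from 655 converted and 448 unconverted to 71 and 146. In all, 20 of the 519 sites had a higher mean at 60 than at 5 min, the other 12 by 2.8 points or less, of them 6 in ND4 at chrM:11363-11460, 5 in ND5 at chrM:13142-13245 and 1 in ND6, where the rates were near 100% throughout.

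Synthetic mtDNA, which carries no methylation, addresses how much of the unconverted cytosine in native mtDNA is background. At 60 min the 7 native preparations had 27.1 to 35.6% (median 30.1%), a mean of 30.6% ± 2.54, and S1 had 29.7%. S1 lay within the native range. The difference was +0.99 points (two-sided exact permutation test of 7 against 1, p = 0.5, the smallest possible being 0.25). With 1 synthetic preparation this design cannot pass 0.05, and the sign of the difference turned under other coverage minimums and windows. Over the 286 common sites the native mean and S1 had a Pearson r of 0.994, again a description over sites that share reads.

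Per site, pooled native reads were set against S1 by Fisher's exact test with Benjamini-Hochberg adjustment over 4129 sites, which compares these libraries and not the kinds of mtDNA. Of 611 sites of intermediate guanine density tested, 11 were higher in native and 2 lower. Among all sites tested 0.315% were higher and 0.702% lower, and on the L strand 0.532 and 1.24%. At an unadjusted p under 0.05 there were 62 of the 611 and 292 of all. Of the 11, 10 lay between L4036 and L4062 in the ND2 stretch printed above, at 99.4 to 99.9% in native and 94.5 to 97.0% in synthetic mtDNA. Each read there covers several of these sites, so they are close to a single observation. The other was L9626 in ND3, at 95% of 40 native and 58.8% of 34 synthetic reads (adjusted p = 0.0221, Fisher's exact test), with 92.9 to 100% in the 3 native preparations that reached 10 reads. The lower pair were L16263 (3.65 against 12.4%, adjusted p = 3.02e-05, Fisher's exact test) and L16265 (3.81 against 12.6%, adjusted p = 4.1e-05, same exact test) in the control region, where no native preparation passed 5.4% at 60 min. At other times single native libraries were higher at L16263 and L16265, with 33.1 and 34.4% in E1_40 and 25.9 and 26.9% in E3_90, against 10.3 and 10.9% in S1_40. The synthetic rate lay below all 7 native rates at 30 of the 286 common sites (10.5%, against 5.76% of the L strand and 3.03% of all sites) and above them at 7 (2.45%, against 4.97 and 5.58%). Of the 30, 10 were in the ND2 stretch, 10 in ND4 at chrM:10899-10962 and 5 in the ND5 stretch at chrM:12806-12853.

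ESC and tissue preparations overlapped in rate. At 60 min the ESC preparations had 27.1, 30.1 and 30.3% and the tissue preparations 30.1, 35.6, 31.2 and 29.97%. The difference was -2.54 points (two-sided exact permutation test of 3 against 4, p = 0.286, the smallest possible being 0.0571). The SD was 1.80 points over the ESC preparations and 2.65 over the tissue preparations, of which B2 was the highest. Per site, limma called 0 of 286 in either direction, with a background of 0%, and Fisher's exact test on pooled reads also called 0. At an unadjusted p under 0.05 limma had 14 of the 286 and 120 of all 2902 sites.

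Longer treatment was available for E3 only, so it has no replicate check. Over 378 sites covered at both times the mean was 18.6% at 60 and 20.05% at 90 min, with 178 sites higher and 134 lower at 90 min. Pooled over reads the difference had the other sign, -2.71 against +1.47 points over sites.

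The rates also varied with the base after the cytosine and with the span without guanine around it. Both depend on the guanines that the rule counts, so they are not independent of it. A lower share of CG where guanines are fewer is in part given by the rule. A CG was rarer here than on the strand as a whole, at 5.48% of the 1259 sites against 7.12% of all L-strand sites, 10.6% of those with a fewest count of 4 or more and 1.74% of those with 0 or 1. Where the count was 2, CG sites had 31.1% ± 5.86 (32 sites) and the other sites 48.5% ± 5.12 (593 sites) at 60 min. Where it was 3, CG sites had 3.64% ± 1.60 (37) and the others 10.3% ± 1.35 (597). Over sites covered in all 8 preparations these were 15.6% ± 1.95 (6 sites) and 51.5% ± 2.82 (149), and 1.05% ± 0.462 (7) and 7.34% ± 0.648 (124). A CG site has a guanine at its side by definition, so its guanine-free span, the run of bases around the site without a guanine, ends there. That span had a median of 18 nt over all sites, 21 where the count was 2 and 16 where it was 3, and a maximum of 44. For sites with a count of 2, the mean rate was 27.6% ± 9.16 at spans of 1 to 10 nt, 36.0% ± 3.82 at 11 to 20 nt, 64.6% ± 5.83 at 21 to 30 nt and 53.8% ± 4.58 at 31 to 50 nt. For sites with a count of 3 it was 2.35% ± 1.06, 7.30% ± 2.76, 13.5% ± 1.65 and 26.8% ± 5.86. The rate was thus higher at spans over 20 nt in both, though for a count of 2 the longest spans were not the highest. These span means are over the sites each library covered, which are not the same sites in each. Over common sites the order of the spans was the same. For a count of 2 the means were 32.4% (17 sites), 38.1% (35), 70.6% (25) and 52.8% (78). For a count of 3 they were 0.877% (29), 1.31% (58), 12.4% (34) and 39.5% (10). The last 2 of these held a few high sites from 1 stretch each. The 34 sites included L9606, L9607, L9611 and L9613 in ND3, at 91.9 to 96.1%. The 10 sites included 5 in the ND5 stretch at chrM:12806-12853, at 68.4 to 70.9%.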

How the data were processed

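Paired-end sequencing of bisulfite-treated mtDNA, of which the authors mapped first reads only, was analysed from 24 libraries. The authors trimmed MiSeq reads with Trim Galore, aligned them with Bismark to mm10 chrM and tabulated each cytosine with their own Perl scripts; versions were not given in the sources used here. The deposited values were the percent of unconverted reads and the coverage, a count of reads, for each cytosine. Unconverted read counts were recomputed from both. The study also set aside reads unconverted at 90% or more; the tables hold no single reads, so that step was not applied here.

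Sites under 10 reads were left out. Fewest counts came from the listed H-strand cytosines. Means over sites were compared by two-sided exact permutation tests over libraries. Single sites were tested by limma on the logit of the unconverted share (offset 0.5, sites covered in every library of the fit) or, for native against synthetic, by Fisher's exact test, with Benjamini-Hochberg adjustment over all sites at 0.05. The scripts were tested on simulated data with known answers. Python 3.11.15, numpy 2.4.6, pandas 2.3.3, scipy 1.17.1, R 4.3.3 and limma 3.58.1 were used. Named sites were the 3 highest, 3 lowest and 3 most variable at 60 min, the 3 with the largest and the 3 with the smallest fall, and the 3 most different between native and synthetic. Named stretches, of at least 10 covered members, were the 4 highest, 4 lowest and 2 most variable, and named genes held at least 30 members. Members and lists were chosen with earlier results of these data known. Libraries of the same preparation came from the same mtDNA by the labels and are paired. As a check, the correlation of their deviations from duration means was taken over 519 sites. It was -0.352 to 0.399 within preparations (6 pairs each) and -0.585 to 0.601 between them. Alternatives were coverage minimums of 20 and 30, windows of 40 and 60 nt, reference guanines, common sites, pooled reads, a logit offset of 1, the replicate block and leaving out each preparation; the coverage minimums for the share at 90% or more were chosen after seeing the data. Whether tissue preparations came from single animals was not given in the sources used here, so p-values over libraries measure the spread between these preparations. Those of Fisher's exact test on summed reads measure counting error only.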

Additional observations from a re-analysis of the deposited data

Results flagged for a closer look

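Values of single libraries were compared with those of the other libraries of the same kind in 33 groups of 4 to 10 samples, and 5 were far from the rest by Dixon's criterion, which chance meets in about 1 in 20 groups. All 5 were B2_60, brain preparation 2 at 60 min, against the 6 other native preparations. It covered 23.59% of the 1259 cytosines, against 47.58 to 57.66%. The SD of its rates over sites was 42.99 points, against 35.77 to 37.65. The share of its sites at 90% or more was 29.29%, against 12.19 to 17.43%. Its mean over the ND1 stretch at chrM:3190-3280 was 92.34%, against 36.22 to 53.56%. Over the stretch at chrM:2589-2812, where all members with a value lay in mt-Rnr2, it was 2.674%, against 0.1632 to 0.7632%. The 5 values come from 1 library and are not separate observations. The ND1 stretch was named in part for its SD over preparations, in which B2 was the highest. The rate of 1 in 20 therefore does not apply to that stretch. The part of the low depth of B2_60 in these values was not tested.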

How the results depend on the processing

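Class and duration means, SD differences and counts of calls were recomputed under the alternatives that apply to each, the windows, reference guanines, common sites and pooled reads not for calls of single sites. Values of stretches, genes and sequence features were not recomputed. Of the recomputed values 232 were kept, 9 reversed, 3 no longer passed the threshold and 11 counts moved by over 1.5 times. Kept means the same direction and side of the threshold for values with a test. For counts of calls it means within 1.5 times, and for the share at 90% or more within 1 SD. The native minus synthetic difference (+0.99) turned to -1.42 and -5.55 points at coverage minimums of 20 and 30 and to -2.11 and -1.69 with 40 and 60 nt windows; without 1 preparation it was 0.156 to 1.57. The change from 40 to 60 min (+0.62) was -0.0688 pooled over reads, -0.565 with 40 nt windows and -0.0931 without S1, and -0.0931 to 1.87 without 1 preparation. The SD difference from the sparse class was 0.632 at a coverage minimum of 30 and -15.5 with 40 nt windows, and the change from 60 to 90 min was -2.71 pooled over reads. The cause of these was not tested. With the replicate block, pairing the libraries of a preparation over durations, the changes of -38.4 and -9.48 points had p = 0.0625 (exact permutation test), the smallest 5 pairs allow. The block in limma gave 476 and 184 lower and 3 higher calls, and changed no other call. For ESC against tissue the block joined preparations of the same number across ESC, brain and liver. These are different material, so that fit does not address pairing.

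Calls of single sites moved with the coverage minimum, which left fewer to test. From 5 to 15 min 313 of 336 were lower at 20 reads and 238 of 251 at 30, against 475 of 519. From 15 to 40 min 142 and 114 were lower, against 186, and 0 and 0 higher, against 3. Leaving out 1 preparation gave 466 to 487 lower from 5 to 15 min, and 140 to 172 lower and 0 to 5 higher from 15 to 40 min; the native against synthetic calls were 8 to 15 higher and 2 lower. Counting sites where S1 lay outside all 7 native rates gave 30 and 7 in place of 11 and 2. Leaving out 1 preparation, the other values were -3.13 to -1.24 for ESC minus tissue, -40.9 to -37.2 and -10.9 to -7.82 for the first 2 intervals, -48.6 to -48.0, 28.3 to 29.5 and -38.8 to -36.0 for the class differences and 2.20 to 3.75, 31.6 to 33.6 and 35.4 to 36.6 for the SD differences.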
